A study of Mus musculus with 15 samples.

Results

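The genes described here are 10 mouse genes that the extracellular signal-regulated kinase (ERK) pathway switches on, most of which feed back on it. They are the phosphatase genes Dusp6 and Dusp4, the Sprouty and Spred genes Spry2, Spry4, Spred1 and Spred2, the ETS factor genes Etv4 and Etv5, and the immediate-early and AP-1 genes Egr1 and Fosl1. They were taken by name, not by any measured value, from 22350 protein-coding genes on chromosomes 1 to 19 and X. Each gene was described by the peaks of 2 histone marks in a window that spans the gene and 20 kb on each side of it, and the 10 windows held 683 kb in all. Chromatin immunoprecipitation sequencing (ChIP-seq) of H3K27ac and H3K4me1 had been done in 3 states of the J1 mouse embryonic stem cell line of strain 129SV. Embryonic stem cells (ESCs) were kept in serum, LIF and 2i, the pair of CHIR99021 at 3 µM and PD0325901 at 1 µM, on feeder fibroblasts or on gelatin. D-EPSCs, expanded potential stem cells of the first kind, were kept in N2B27 with KSR, LIF, CHIR99021 at 3 µM, dimethindene maleate and minocycline hydrochloride, and PD0325901 is not named in that medium. L-EPSCs, the second kind, were kept in KSR medium with LIF, CHIR99021 at 3 µM, PD0325901 at 1 µM, A-419259, XAV939, JNK inhibitor VIII and SB203580, on feeder fibroblasts or on gelatin. Both kinds of EPSC were grown without feeders for several passages before ChIP-seq. All 3 states share the J1 line, LIF and CHIR99021, and the media differ in several inhibitors at a time, so the part of any 1 ingredient cannot be told apart from that of the others. The comparison asks how the chromatin of ERK-driven genes is marked in cells whose media hold a MEK inhibitor (ESCs and L-EPSCs) or are not stated to hold one (D-EPSCs).

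Fibroblast growth factors bind receptors that pass a signal through adaptors to Ras, Raf, MEK and ERK, and ERK then phosphorylates transcription factors that switch on early response genes. PD0325901 inhibits MEK, the kinase directly above ERK. Many of the genes that ERK switches on act as brakes: DUSP phosphatases remove the phosphates from ERK, and Sprouty and Spred proteins act higher in the cascade, near Ras and Raf. In mouse ESCs the autocrine FGF and ERK signal primes cells to leave self-renewal, which is why a MEK inhibitor is used to hold them in the naive state. H3K27ac marks active promoters and enhancers, while H3K4me1 marks enhancers, active or not, and the flanks of promoters.

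There was 1 list of peaks per state and mark, which gives positions but neither counts nor depth. The differences below therefore have no replicate error and no test, and a gene is called higher or lower where the bases under peaks differ at least 2-fold and at least 1 kb is covered in either state. The 3 H3K27ac lists were unequal, with 107.4 Mb covered (ESCs), 44.4 Mb (D-EPSCs) and 34.3 Mb (L-EPSCs), so most windows anywhere in the genome are called lower in both EPSCs than in ESCs. The H3K4me1 lists covered 221.1, 187.5 and 173.1 Mb. The share of all protein-coding windows called is given beside each count for that reason, and each count is to be read against it. Each gene's value was taken again with lists cut to an equal number of peaks or to equal covered bases. The called values that changed sign are given at the end. How much of a given gene's difference list length causes was not tested. In bulk ChIP-seq, fewer cells with a mark and less of the mark per cell cannot be told apart. The cell type was checked against markers, which cannot tell the 3 states from each other: 5 of 6 pluripotency genes (Pou5f1, Sox2, Nanog, Zfp42 and Klf4, but not Esrrb) had H3K27ac within 1 kb of the start site in each state, and 0 of 8 fibroblast genes of the feeder layer had it in any state. Of 6 primitive endoderm and trophoblast genes, 1 (Eomes) had it in ESCs and 0 in either EPSC state.

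The window levels fell into 2 groups. Spry4, Spred2 and Etv5 lay in wide marked domains in ESCs, with 54.5%, 54.2% and 55.2% of the window under H3K27ac, more than in 98.7%, 98.6% and 98.7% of all windows. The other 7 genes had 2.48% (Dusp4) to 30.0% (Spry2) under H3K27ac in ESCs. H3K4me1 covered more of each window than H3K27ac did in every state, from 8.47% (Spred1 in L-EPSCs) to 76.6% (Spry4 in ESCs). Over the 10 windows, H3K27ac covered 196.99 kb (ESCs), 104.78 kb (D-EPSCs) and 72.20 kb (L-EPSCs), and H3K4me1 covered 319.57, 329.94 and 268.07 kb.

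**Figure D1:**
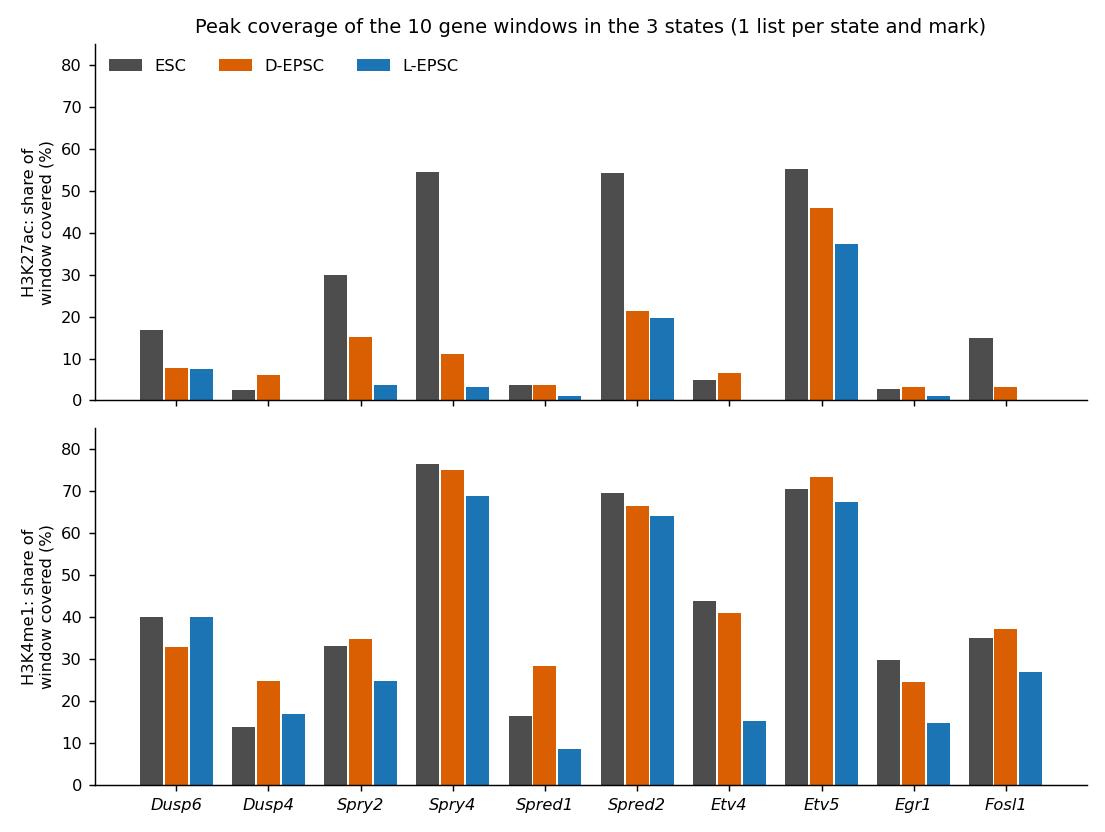
The share of each gene's window (gene span and 20 kb on each side, in %) under H3K27ac peaks (top) and H3K4me1 peaks (bottom) is plotted for the 10 genes, with 1 bar per state and 1 peak list behind each bar. H3K27ac is lowest in L-EPSCs at all 10 genes and is 0 there at Dusp4, Etv4 and Fosl1, while Spry4, Spred2 and Etv5 have 64.2% or more of the window under H3K4me1 in all 3 states.

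The promoters were described first by the peaks at their start sites. A promoter peak is one that touches the 1 kb on either side of the gene's start site, taken as the 5′ end of the annotated gene. H3K27ac promoter peaks were present at 8 of the 10 genes (ESCs), 9 (D-EPSCs) and 7 (L-EPSCs), where 35.7%, 35.3% and 28.8% of all protein-coding genes had them. A peak lay over the first base of the gene at 4 genes (ESCs), 8 (D-EPSCs) and 3 (L-EPSCs), against 21.5%, 24.4% and 17.4% of all genes. The first base of Dusp4, Spry4, Etv4 and Etv5 was thus under a peak in D-EPSCs and not in ESCs, and that of Etv5 was also under one in L-EPSCs. Summed over the genes, promoter peaks covered 30.52 kb (ESCs), 41.27 kb (D-EPSCs) and 11.62 kb (L-EPSCs). The order of the sums depends on how peaks are split: with peaks within 1 kb of each other joined they were 55.74, 41.27 and 14.91 kb, so ESCs came first, and with 2500 bp on each side of the start site the L-EPSC sum was 18.31 kb.

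In a comparison chosen after the values were seen, promoter peaks were at least 2-fold wider in D-EPSCs than in L-EPSCs at 7 of the 9 genes that could be compared (Dusp4, Spry2, Spry4, Spred1, Spred2, Etv4 and Egr1), against 28.7% of all genes compared. They were narrower at 0, against 5.00% of all genes. The median difference was 2.73 kb over the 9 genes and 0.45 kb over the 4299 genes compared. Against ESCs, D-EPSC promoter peaks were wider at 4 genes (Dusp4, Etv4, Etv5 and Egr1; 10.6% of all genes) and narrower at 0 (40.6% of all genes), with a median difference of 1.14 kb over the members and -0.78 kb over all genes compared. With lists of equal covered bases, 7 of the 9 were wider where 78.2% of all genes were, so the count is then at the background share. With peaks within 1 kb joined, 2 were narrower (48.4% of all genes). L-EPSC promoter peaks were narrower than those of ESCs at 5 of 7 genes (Spry2, Spry4, Spred1, Spred2 and Etv4; 58.9% of all genes) and wider at Etv5 alone (4.06% of all genes).

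**Figure D2:**
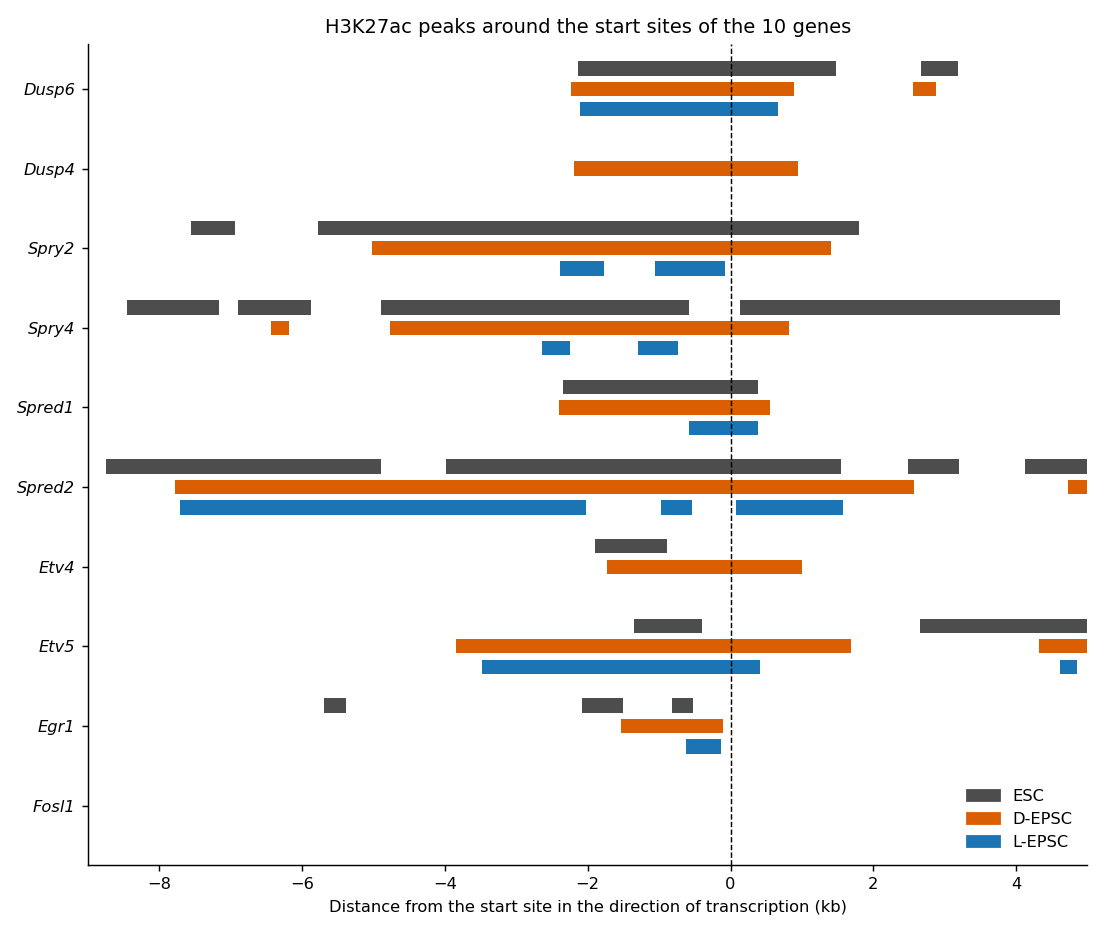
H3K27ac peaks are drawn as bars against the distance from the start site (kb, in the direction of transcription, dashed line at 0), with 1 row per state for each of the 10 genes. D-EPSC bars cross the start site at 8 genes and L-EPSC bars at 3 (Dusp6, Spred1 and Etv5), and Fosl1 has no bar in the range drawn.

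Among the phosphatase genes, Dusp6, which encodes the cytoplasmic ERK phosphatase, had the most even promoter of the 10. Its promoter peak was 3.62 kb wide (ESCs), 3.13 kb (D-EPSCs) and 2.76 kb (L-EPSCs), and it covered the first base in all 3 states. The window of the gene (ENSMUSG00000019960.6, chr10:98725865-98730122, plus strand) held 7.47, 3.46 and 3.36 kb of H3K27ac, and distal peaks held 3.85, 0.33 and 0.60 kb of it. H3K4me1 covered 17.76, 14.59 and 17.72 kb there. Dusp4, which encodes the nuclear phosphatase of the same family, had the opposite form (ENSMUSG00000031530.6, chr8:35870351-35882948, plus strand). No H3K27ac peak lay at its promoter in ESCs or L-EPSCs, and in D-EPSCs a peak of 3.14 kb ran from -2192 to 947 bp of the start site. That peak was all the H3K27ac of the window in D-EPSCs, ESCs had 1.31 kb in a peak in the last part of the neighbouring gene Tnks, and L-EPSCs had 0 kb. H3K4me1 was present at Dusp4 in all 3 states, with 7.18 kb (ESCs), 12.97 kb (D-EPSCs) and 8.89 kb (L-EPSCs).

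The Sprouty and Spred genes encode inhibitors of receptor tyrosine kinase signalling. Spry2 (ENSMUSG00000022114.4, chr14:106291166-106296036, minus strand) had a promoter peak of 7.58 kb (ESCs), 6.43 kb (D-EPSCs) and 0.99 kb (L-EPSCs), and the L-EPSC peak ended 72 bp short of the start site. Its window held 13.45, 6.84 and 1.61 kb of H3K27ac, so D-EPSCs had 4.25 times the L-EPSC value and ESCs 8.35 times. Spred1 (ENSMUSG00000027351.8, chr2:116947110-117008015, plus strand) had promoter peaks of 2.73, 2.95 and 0.96 kb, all over the first base. It was the gene with the widest gain of H3K4me1 in D-EPSCs, with 16.54 kb (ESCs), 28.65 kb (D-EPSCs) and 8.55 kb (L-EPSCs). Spred2 (ENSMUSG00000045671.11, chr11:19824378-19924029, plus strand) had promoter peaks of 5.53 kb in ESCs and 10.35 kb in D-EPSCs, whereas in L-EPSCs 2 short peaks that sum to 1.95 kb lay on either side of the start site. An L-EPSC peak further upstream is not counted in that sum. With 2500 bp on each side of the start site it was counted, the difference between D-EPSCs and L-EPSCs was 2.72 kb, and the gene was no longer called.

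For these genes the letters at the start site show where the acetylated promoter was interrupted in L-EPSCs. Promoter sequences from RefSeq (build GRCm38.p6) were available for Dusp6, Spry2, Spred1, Spred2 and Etv5, of which Etv5 has 2 start sites, and each of the 6 sequences matched the mm9 genome at 1 place without a mismatch. The 250 bases before the start site are printed 5′ to 3′ for the promoters at which L-EPSC acetylation stopped within the sequence, was absent, or was whole at 1 of 2 start sites. The RefSeq start sites of Spred1, Spred2 and Etv5 are not the first base of the annotated gene used above. Every base printed lay in a D-EPSC H3K27ac peak, and capitals mark the bases that also lay in an L-EPSC H3K27ac peak.
Spry2: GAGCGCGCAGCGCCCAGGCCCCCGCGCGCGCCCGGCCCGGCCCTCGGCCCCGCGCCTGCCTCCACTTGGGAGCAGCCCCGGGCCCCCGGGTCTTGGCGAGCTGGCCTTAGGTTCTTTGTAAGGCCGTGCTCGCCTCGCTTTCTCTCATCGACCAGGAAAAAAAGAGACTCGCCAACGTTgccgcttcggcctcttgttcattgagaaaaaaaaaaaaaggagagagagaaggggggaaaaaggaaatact
Spred2: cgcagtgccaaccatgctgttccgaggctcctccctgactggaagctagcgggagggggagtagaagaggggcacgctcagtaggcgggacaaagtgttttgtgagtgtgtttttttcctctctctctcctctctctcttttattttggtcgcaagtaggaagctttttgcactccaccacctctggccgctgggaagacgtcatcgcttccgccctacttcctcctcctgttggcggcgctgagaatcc
Etv5, upstream start site: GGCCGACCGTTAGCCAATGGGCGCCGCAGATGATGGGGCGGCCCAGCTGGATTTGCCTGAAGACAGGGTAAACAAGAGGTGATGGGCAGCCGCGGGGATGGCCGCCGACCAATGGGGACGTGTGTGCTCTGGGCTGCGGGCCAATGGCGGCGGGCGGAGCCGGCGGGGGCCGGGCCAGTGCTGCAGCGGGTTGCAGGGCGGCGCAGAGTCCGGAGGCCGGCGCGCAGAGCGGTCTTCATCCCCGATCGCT
Etv5, downstream start site: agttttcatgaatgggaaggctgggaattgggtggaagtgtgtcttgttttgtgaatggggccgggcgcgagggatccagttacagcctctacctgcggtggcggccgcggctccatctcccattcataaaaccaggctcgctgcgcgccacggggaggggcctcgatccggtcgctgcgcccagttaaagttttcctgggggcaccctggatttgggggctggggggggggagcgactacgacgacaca
At Spry2 (chr14:106296037-106296286, minus strand) the L-EPSC peak held 179 of the 250 bases and stopped before the start site, while the ESC peak held all 250. At Spred2 (chr11:19824195-19824444, plus strand) the L-EPSC list held 0 of the 250 bases and the ESC list all of them. The upstream start site of Etv5 (chr16:22439644-22439893, minus strand) was held whole in both EPSCs and the downstream one (chr16:22438442-22438691, minus strand) only in D-EPSCs, with 0 bases of either in an ESC peak. The promoters of Dusp6 and Spred1, not printed, were held whole in all 3 states.

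In the 300 bases from 250 before to 50 after each of these 6 start sites, 4 motifs of factors that act below ERK were searched on both strands. The ETS form CCGGAA had 1 match, which began 33 bases after the Spry2 start site, and 14.9% of 32851 RefSeq promoters hold a match. The AP-1 site TGANTCA (7.81% of promoters), the cAMP response element TGACGTCA (1.79%) and the CArG box of serum response factor (1.63%) had 0 matches. A letter match is not evidence of binding, and its absence says only that these letters are not in this window.

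The ETS factor genes Etv4 and Etv5 encode transcription factors of the PEA3 family and are among the usual readouts of FGF signalling. Etv4 (ENSMUSG00000017724.8, chr11:101631056-101646685, minus strand) had a promoter peak of 1.00 kb in ESCs that ended at -891 bp of the start site, a peak of 2.73 kb over the start site in D-EPSCs, and none in L-EPSCs. Its window held 2.76, 3.65 and 0 kb of H3K27ac, and 0.61 kb of the ESC value lay over an exon of the neighbouring gene Dhx8. Etv4 was also the gene with the largest loss of H3K4me1 in L-EPSCs, with 24.35 kb (ESCs), 22.80 kb (D-EPSCs) and 8.46 kb (L-EPSCs). Etv5 (ENSMUSG00000013089.8, chr16:22381382-22439792, minus strand) kept its H3K27ac in all 3 states, with 54.31, 45.18 and 36.72 kb, and these were more than in 98.7%, 99.7% and 99.6% of all windows. It was the only gene of the 10 whose promoter peak was called wider in both EPSCs than in ESCs, from 0.96 kb in ESCs to 5.52 kb (D-EPSCs) and 3.90 kb (L-EPSCs).

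Spry4, Egr1 and Fosl1 lie beside other genes, and their values carry that limit. The neighbours in the Egr1 window are Reep2 and Gm17507. Spry4 (ENSMUSG00000024427.6, chr18:38745922-38760922, minus strand) shares its 5′ region with Arhgap26 and 9630014M24Rik, whose start sites lie within 1 kb of its promoter peaks. It had 2 promoter peaks that sum to 8.79 kb in ESCs, on either side of the start site, 1 of 5.59 kb over the start site in D-EPSCs and 1 of 0.56 kb in L-EPSCs. Its window held 30.00, 6.05 and 1.71 kb of H3K27ac, while H3K4me1 held 42.11, 41.36 and 37.91 kb. Egr1 (ENSMUSG00000038418.6, chr18:35020861-35024638, plus strand), a zinc finger factor induced within minutes of stimulation, had narrow promoter peaks of 0.29, 1.43 and 0.49 kb, none over the first base. Where peaks less than 1 kb apart were joined, the D-EPSC minus ESC difference in width was -0.12 kb, so the Egr1 difference between D-EPSCs and ESCs depends on how peaks are split. Fosl1 (ENSMUSG00000024912.5, chr19:5447703-5455945, plus strand), the AP-1 gene that encodes Fra-1, had no H3K27ac promoter peak in any state. Of the 7.12 kb of H3K27ac in its ESC window, 4.93 kb lay at the start sites of Ccdc85b, Ctsw and Efemp2, and 3.11% of the window was covered in D-EPSCs and 0% in L-EPSCs, beside 14.8% in ESCs.

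Over whole windows, H3K27ac was at least 2-fold higher in D-EPSCs than in L-EPSCs at 7 of 10 genes (Dusp4, Spry2, Spry4, Spred1, Etv4, Egr1 and Fosl1), against 33.0% of all windows compared, and lower at 0, against 5.49%. All 10 genes had more in D-EPSCs than in L-EPSCs, by 0.21 to 11.65 percentage points of the window, with a median of 4.54 points against 1.38 points over all windows compared. Differences in points, here and below, were not scaled to coverage and can be larger where more of a window is covered. Cut to equal covered bases, the lists gave 7 genes higher and 0 lower, while the share of all windows called higher was 20.7% and called lower 15.6%. That cut keeps the widest peaks of each list and does not make the number of peaks equal. In those lists Dusp6 and Spred2 had less in D-EPSCs than in L-EPSCs, with differences of -0.23 and -1.16 kb. With 50 kb on each side the count was 5 of 10, against 31.2% of all windows, and Egr1 and Fosl1 were no longer called. At a fold of 1.5 it was 7, against 49.7%.

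Against ESCs, whose list is the longest, H3K27ac was at least 2-fold lower in D-EPSCs at 4 genes (Dusp6, Spry4, Spred2 and Fosl1) against 61.6% of all windows, and higher at Dusp4 alone against 4.66%. The median difference was -9.17 percentage points of the window over the members and -5.28 over all windows compared, so the median loss in points was larger at the members although fewer of them were called. The members include windows with wide coverage in ESCs, such as Spry4 (54.5%) and Spred2 (54.2%), where more points can be lost. In L-EPSCs H3K27ac was lower at 9 genes, all but Etv5, against 79.6%, and higher at 0 against 1.79%, with medians of -12.03 and -6.85 points. With lists of equal covered bases these counts were 1 lower and 6 higher in D-EPSCs and 2 lower and 1 higher in L-EPSCs, where 15.4% and 64.0%, and 17.3% and 60.5%, of all windows were called, so the counts against ESCs depend on how the lists are cut. With lists of an equal number of peaks they were 3 lower (49.5%) and 3 higher (11.7%) in D-EPSCs, and in L-EPSCs 7 lower (67.8%) and 0 higher (5.83%). D-EPSCs were the highest of the 3 states at 4 genes (Dusp4, Spred1, Etv4 and Egr1) against 11.1% of all windows with at least 1 kb in any state, although at Spred1 the ESC and D-EPSC values, 3.69 and 3.75 kb, were nearly equal. With equal covered bases D-EPSCs were highest at 5 genes where 45.8% of all windows were. L-EPSCs were the lowest at all 10 genes against 68.6% of all windows, a count taken after the values were seen. With equal covered bases they were lowest at 3 genes, where 14.7% of all windows were.

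Few of the genes passed the 2-fold limit for H3K4me1. None was called in D-EPSCs against ESCs, where 4.52% of all windows were lower and 8.53% higher. Etv4 and Egr1 were lower in L-EPSCs than in ESCs (9.12% of all windows) and 0 were higher (9.27%). Spred1, by 3.35 times, and Etv4, by 2.70 times, were higher in D-EPSCs than in L-EPSCs (2.98% of all windows) and 0 were lower (3.17%). At Egr1 the values were 13.04, 10.76 and 6.42 kb. D-EPSCs were highest of the 3 states at 5 genes (Dusp4, Spry2, Spred1, Etv5 and Fosl1; 28.2% of all windows) and L-EPSCs lowest at 8, all but Dusp6 and Dusp4 (55.7%). The median D-EPSC minus L-EPSC difference was 8.84 percentage points of the window over the 10 genes, 9 of which were above 0, and 1.63 points over all windows compared. The median L-EPSC minus ESC difference was -7.78 points, with 9 genes below 0, and -3.34 points over all windows.

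H3K4me1 was less often over the start site itself than near it. An H3K4me1 peak lay within 1 kb of the start site at 6 genes (ESCs), 8 (D-EPSCs) and 9 (L-EPSCs), against 57.5%, 67.1% and 68.0% of all genes. It lay over the first base at 0, 2 (Etv4 and Fosl1) and 3 genes (Dusp6, Etv4 and Fosl1), against 11.4%, 26.2% and 31.8% of all genes. Fosl1, the gene without promoter H3K27ac, thus had H3K4me1 over its first base in both EPSCs, where the peaks were 2.10 and 2.01 kb wide, and in ESCs its H3K4me1 peak began 505 bp after the start site. At Dusp6 the L-EPSC peak of 7.06 kb ran across the whole promoter, which had no H3K4me1 peak within 1 kb in ESCs and 1 of 0.49 kb in D-EPSCs.

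Away from start sites, the windows held 65 distal H3K27ac peaks (ESCs), 29 (D-EPSCs) and 27 (L-EPSCs). A distal peak is one that lies over 1 kb from the 5′ end of any protein-coding gene. Peaks at other annotated start sites inside a gene can thus count as distal, and Spred2 has 3 start sites and Etv5 has 4. The distal peaks were not checked for such sites here. The distal peaks covered 161.55, 62.28 and 60.58 kb, so the distal sums of the EPSCs lay close to each other, unlike the promoter sums. That contrast depends on how peaks are split. At Spred2 the D-EPSC promoter peak of 10.35 kb counts wholly as promoter. An L-EPSC peak of 5.68 kb within the same span counts as distal. Joined across states, the distal peaks formed 64 regions, of which 13 were acetylated in all 3 states, 35 in ESCs only, 9 in ESCs and D-EPSCs, 3 in ESCs and L-EPSCs, 4 in D-EPSCs only and 0 in L-EPSCs only. Regions that reach past a window's edge were classed over their whole length. The edge regions of Spry2 (all 3 states) and Spry4 (chr18:38723349-38727055, ESCs and D-EPSCs) had their EPSC peaks outside the window. The ESC-only share was 54.7%, and it was 59.0% over the 61275 distal regions of the genome. Of the 35 ESC-only regions, 31 had H3K4me1 in ESCs, and 25 and 23 still had it in D-EPSCs and L-EPSCs. Over the genome 82.3%, 63.2% and 59.8% of ESC-only regions had it.

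Spred2 held 22 of the 64 regions. Its widest was acetylated in all 3 states, spans 20.11 kb inside the gene, an exon with UTR included (chr11:19846724-19866835, 22.35 to 42.46 kb after the start site) and was covered over 19.41 kb (ESCs), 1.72 kb (D-EPSCs) and 7.36 kb (L-EPSCs). H3K4me1 held 20.11, 20.11 and 19.48 kb of it. Here the L-EPSC value was above the D-EPSC value, unlike at the promoter at the 5′ end of the gene. The widest ESC-only region, of 3.59 kb in an intron (chr11:19831352-19834942), was wholly under H3K4me1 in all 3 states. In sum, 48.62 kb of the Spred2 window was acetylated in ESCs and not in D-EPSCs, and 88.2% of it lay under H3K4me1 in D-EPSCs.

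Etv5 held the steadiest domain. A region of 27.18 kb inside the gene (chr16:22392359-22419541, 20.25 to 47.43 kb after the start site) was acetylated over 26.86 kb (ESCs), 26.86 kb (D-EPSCs) and 24.90 kb (L-EPSCs). Beside it, a region of 12.32 kb that begins 2.66 kb after the start site was covered over 12.32, 9.47 and 5.04 kb. The widest ESC-only region of the window, 2.33 kb over exons at the 3′ part of the gene (chr16:22386205-22388530), had H3K4me1 in ESCs and D-EPSCs, over 1.70 kb in the latter, and 0 kb in L-EPSCs. Etv5 also had 2 regions of D-EPSCs only, of which the wider, 0.56 kb in an intron (chr16:22422503-22423066), lay wholly under H3K4me1 in ESCs as well.

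At Spry4 none of the 9 distal regions was acetylated in all 3 states. Its widest ESC-only region (chr18:38727663-38731024, 3.36 kb, outside protein-coding genes and past the 3′ end of Spry4) was wholly under H3K4me1 in all 3 states. A region of 6.80 kb over the 3′ part of the gene was covered wholly in ESCs, over 0.45 kb in L-EPSCs and not in D-EPSCs. Of the 24.67 kb acetylated in ESCs and not in D-EPSCs, 91.8% lay under H3K4me1 in D-EPSCs, and of the 28.54 kb not acetylated in L-EPSCs, 89.3% did in L-EPSCs.

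**Figure D3:**
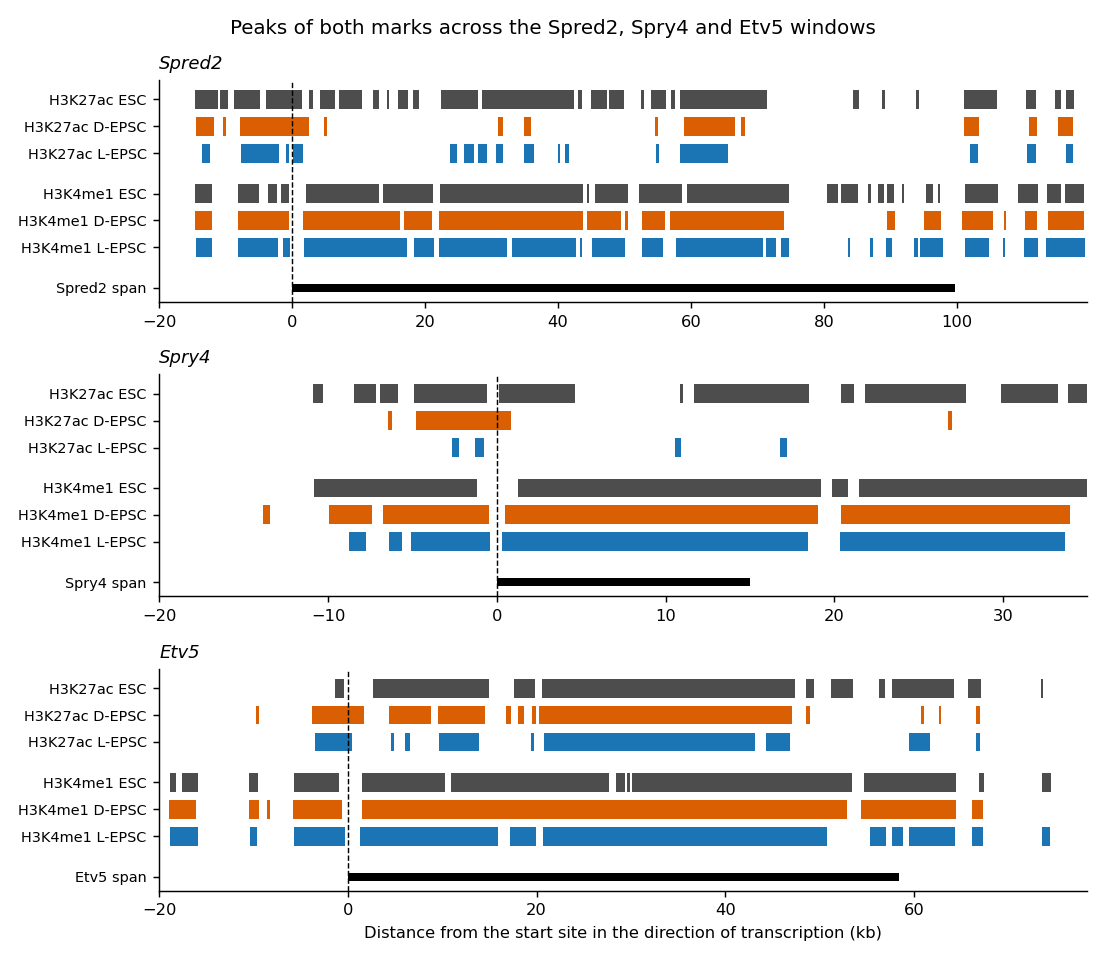
Peaks of H3K27ac and H3K4me1 in each state are drawn against the distance from the start site (kb, dashed line at 0) across the windows of Spred2, Spry4 and Etv5, with the gene span as a black bar. H3K4me1 bars fill much the same places in all 3 states, H3K27ac bars are fewer in both EPSCs at Spred2 and Spry4, and the Etv5 domain from about 20 to 47 kb keeps its H3K27ac bars.

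The other genes had few and narrow distal regions. Spry2 had 1 in all 3 states (chr14:106269195-106271435, 2.24 kb, outside protein-coding genes and reaching past the window's edge), covered over 2.24, 0.69 and 0.35 kb. The D-EPSC and L-EPSC parts of that region lay outside the window, so within the window it was acetylated in ESCs only. The widest region of Spry2 classed as ESC-only was 1.85 kb (chr14:106288841-106290691). Regions of D-EPSCs without ESCs were found at Spred1 (chr2:117019999-117020798, 0.80 kb, outside protein-coding genes and 72.89 kb after the start site) and at Etv4 (chr11:101633326-101634236, 0.91 kb, over an exon), and both carried H3K4me1 in all 3 states. The widest ESC-only regions at Dusp6, Spred1, Etv4, Egr1 and Fosl1 were 0.85, 0.51, 1.15, 0.31 and 0.84 kb. The Dusp4 window had 1 distal region, the ESC peak in Tnks, which had no H3K4me1 in any state.

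Over the 10 genes, 109.79 kb was acetylated in ESCs and not in D-EPSCs, and 85.5% of it lay under H3K4me1 in D-EPSCs. The share differed between genes, from 0% at Dusp4 and 61.4% at Fosl1 to 100% at Spred1 and Egr1, where under 1 kb was concerned. For L-EPSCs the sum was 130.02 kb, of which 76.9% lay under H3K4me1 in L-EPSCs. The median over all windows with at least 1 kb of such bases was 66.4% (D-EPSCs) and 59.2% (L-EPSCs). These are medians of the share per window, whereas the values over the 10 genes are shares of summed bases. They are unlike measures, and the gap between them is not a measure of how the genes differ from other windows. The sums over members are led by Spred2, Spry4 and Etv5, whose windows are among the most widely marked by H3K4me1 in every state.

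The rest of the cascade was read in 4 lists of 51 genes in all. H3K27ac windows were higher in D-EPSCs than in L-EPSCs at 1 of 10 receptor and adaptor genes compared (Grb2, with 9.03 against 3.41 kb), 3 of 11 kinase and Ras genes of the cascade (Braf and Araf among them), 3 of 8 other feedback genes (Il17rd, Nf1 and Spred3) and 5 of 14 other target transcription factors (Etv1, Myc, Elk4, Jun and Elk1). Together that is 12 of 43, or 27.9%, beside 33.0% of all windows. Mapk3 (ERK1) and Nras were lower, which is 2 of 43, or 4.65%, near the 5.49% of all windows. The list median was 1.52 percentage points, near the 1.38 points over all windows. Il17rd, which encodes the FGF receptor inhibitor Sef, had 48.76, 19.42 and 4.43 kb in ESCs, D-EPSCs and L-EPSCs. Spry1 had 0.59, 0.62 and 0 kb, under the 1 kb needed.

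Promoter peaks of the cascade genes were wider in D-EPSCs than in L-EPSCs at 9 of the 18 compared, beside 28.7% of all genes. The 5 with the largest differences were Ccnd1, which encodes cyclin D1 (3.88 against 0.24 kb), the adaptor gene Shc1 (4.00 against 0.50 kb), Junb (3.11 against 0 kb), Map2k1, which encodes MEK1 (1.56 against 0 kb), and Il17rd (2.07 against 0.63 kb). None of the 18 was narrower, beside 5.00% of all genes. Against ESCs, the windows of the kinases and receptors were mostly lower in both EPSCs. In D-EPSCs they were lower at 10 of 10 receptor and adaptor genes and 10 of 11 kinase genes (61.6% of all windows). The other lists had 4 of 8 feedback genes and 8 of 14 target transcription factors lower. Together that is 32 of 43 cascade genes lower in D-EPSCs, or 74.4%. In D-EPSCs 1 of 43 cascade genes was higher (4.66%), Srf, with 0.50, 1.14 and 1.33 kb. In L-EPSCs 34 of 42 cascade genes were lower, or 81.0%, beside the 79.6% of all windows. For H3K4me1, 1 of 51 was higher in D-EPSCs than in L-EPSCs (Rasa1; 2.98% of all windows) and 0 were lower (3.17%). The window of Fgfr2 is 3049 kb long in this annotation, so its values say little of the gene.

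**Figure D4:**
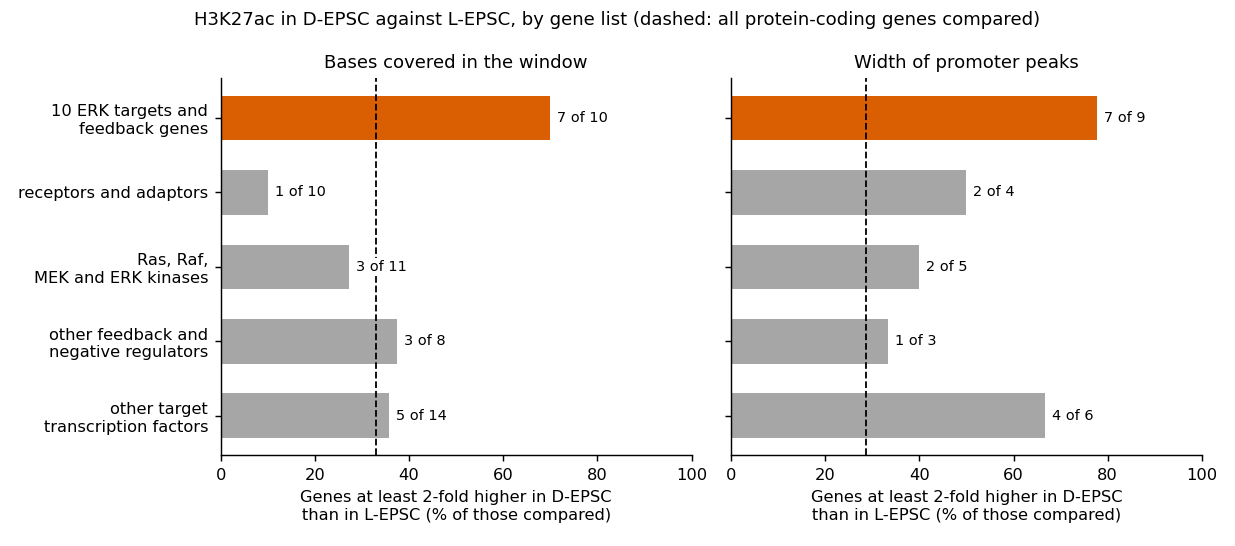
The share of genes (%) with at least 2-fold more H3K27ac in D-EPSCs than in L-EPSCs is plotted for the 10 genes (orange) and 4 lists of other cascade genes (grey), by bases covered in the window (left) and by width of promoter peaks (right), with the count of genes beside each bar and the share of all protein-coding genes as a dashed line. The 10 genes stand at 7 of 10 and 7 of 9, beside dashed lines at 33.0% and 28.7%, and the other lists hold as few as 3 genes on the right.

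By the 6 shares of the window covered (2 marks in 3 states), the protein-coding genes most like each member, with the Euclidean distance in percentage points, were Ppil6 for Dusp6 (4.14), S100a3 for Dusp4 (3.53), Snf8 for Spry2 (4.98), Hspb1 for Spry4 (11.7), Vrtn for Spred1 (5.59), C130040N14Rik for Spred2 (5.44), Nup43 for Etv4 (7.87), Txnip for Etv5 (13.2), N4bp2l2 for Egr1 (2.21) and Fam178b for Fosl1 (3.41). Spry4 and Etv5 had the most distant nearest gene.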

How the data were processed

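H3K27ac and H3K4me1 ChIP-seq was made in 15 samples, 2 per mark and state and 1 input per state. Per the labels and methods, the authors trimmed reads with Trim Galore 0.6.3 and cutadapt, checked them with FastQC 0.10.1, aligned them to mm9 with Bowtie2 2.3.5, used SAMtools 1.10 and HOMER, and called broad peaks against input with MACS2. Thresholds, the pooling of replicates and the depth are not given in the sources used here. The deposited files hold peak positions only, with no score, count or signal, so no interval or test could be computed.

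Gene spans came from GENCODE M1 (protein-coding genes, mm9). Bases under peaks and peak widths were counted with Python 3.11.15 and numpy 2.4.6, and the counting was tested on simulated peaks. Windows, start sites and calls are defined where first used. Promoter sequences came from RefSeq (GRCm38.p6) and were placed on mm9 by exact match. Named distal regions were the widest per gene in each class of states. The 12.32 kb region at Etv5 and the 6.80 kb region at Spry4 were named outside that rule, after their values were seen. The genes and lists were chosen with earlier results of these data known, and the promoter width comparison, the count of genes lowest in L-EPSCs and their alternatives were chosen after seeing the data. Alternatives changed the window, the peaks kept, list length, joining, fold and start site window. The values of 1 gene of the cascade lists are not reported here.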

Additional observations from a re-analysis of the deposited data

Results flagged for a closer look

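The Dusp4 window and the Etv4 promoter differed from ESCs in opposite directions in D-EPSCs and L-EPSCs. At Dusp4, H3K27ac in the window differed from ESCs by 1.83 kb in D-EPSCs and by -1.31 kb in L-EPSCs. The L-EPSC value is wholly the ESC peak in the neighbouring gene Tnks. No promoter peak lay at Dusp4 in ESCs or L-EPSCs. At Etv4, the width of H3K27ac promoter peaks differed from ESCs by 1.73 kb in D-EPSCs and by -1.0 kb in L-EPSCs. Each value compares 1 peak list with another, and the difference between the EPSCs was not tested. The L-EPSC difference was 0.00 kb at Dusp4 with 10 kb on each side of the gene or with lists of equal covered bases. At Etv4 it was 0.00 kb with 500 bp on each side of the start site and with lists of equal covered bases or of equal length, so the opposite direction of each gene is not seen under the settings named for it.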

How the results depend on the processing

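No paired analysis was possible because there is 1 peak list per state and mark, and for the same reason no replicate could be left out. Of 205 counts under alternatives, 178 stayed within 1.5 times the reported count and 27 did not. The D-EPSC over L-EPSC count of H3K27ac windows was 7 under every alternative but 50 kb on each side, where it was 5 (31.2% of all windows). The share of all windows moved while the count stayed at 7, from 20.7% with lists of equal covered bases to 49.7% at a fold of 1.5. The promoter count was 7 under every alternative but 2500 bp, where it was 6. The share of all genes beside these promoter alternatives is not given here.

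The share of all genes or windows called stands in parentheses. With lists of equal covered bases, H3K27ac windows against ESCs were higher at 6 (64.0%) and lower at 1 (15.4%) in D-EPSCs, and higher at 1 (60.5%) and lower at 2 (17.3%) in L-EPSCs, which were lowest of the 3 states at 3 genes (14.7%). Promoter peaks were then wider at 7 in D-EPSCs (78.2%), and wider at 2 (69.4%) and narrower at 2 (24.8%) in L-EPSCs. H3K4me1 windows were higher at 2 in D-EPSCs (23.6%) and lower at 1 in L-EPSCs (3.26%). H3K27ac windows higher in D-EPSCs than ESCs numbered 3 with lists of equal length (11.7%), 2 with peaks of at least 500 bp (5.15%) and 2 with the widest 50% of each list (7.23%), and those lower numbered 2 with 10 kb on each side (61.0%). Promoter peaks narrower in D-EPSCs than ESCs numbered 1 at a fold of 1.5 (52.0%) and 2 with peaks within 1 kb joined (48.4%). H3K4me1 windows higher in D-EPSCs than ESCs numbered 1 with 50 kb (7.72%), 2 at a fold of 1.5 (14.2%) and 2 with the widest 50% (13.6%), and those lower in L-EPSCs numbered 1 with 50 kb (6.57%). With 50 kb D-EPSCs were highest at 2 genes for H3K27ac (10.3%) and 3 for H3K4me1 (25.2%). H3K4me1 near the start site in ESCs was found at 10 genes with 2500 bp (66.8%) and 1 with 500 bp (35.4%). Over the first base of any transcript it was found at 2 (ESCs, 18.4%), 4 (D-EPSCs, 33.2%) and 5 genes (L-EPSCs, 38.2%).

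The sign turned for 10 of 630 member values, counting only values that were called at the main settings. Sign changes of values not called there were not counted. An example is the D-EPSC minus ESC window difference of Egr1, 0.26 kb at the main settings and -8.08 kb with 50 kb on each side. The 10 values counted follow. With equal covered bases the D-EPSC minus ESC difference was 3.13 kb at Dusp6 and 1.22 kb at Fosl1, the L-EPSC minus ESC difference was 3.36 kb at Dusp6, 0.49 kb at Egr1 and 0.96 kb at Spred1, and for promoter width 0.96 kb at Spred1 and 0.56 kb at Spry4. With lists of equal length it was 0.49 kb at Egr1. Joined peaks gave -0.12 kb for the D-EPSC minus ESC promoter width of Egr1, and 2500 bp gave 1.38 kb for L-EPSC minus ESC at Spred2. Beyond the construction of the shortened lists, which keep the widest peaks, the cause was not tested. Without counts or scores, the depth limits cannot be stated.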
